A study of Rattus norvegicus with 18 samples.

Results

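The 37 genes described here encode the enzymes that make cholesterol and fatty acids, the proteins that sense and move sterols inside the cell, and 4 proteins of cholesterol efflux and turnover. They were chosen by symbol: every probe set that the array's platform annotation gives 1 of the 37 symbols was taken, and each gene was read from its probe set with the highest mean signal over the pools. Of the 37 genes, 36 had an annotated probe set. Hmgcs1 had none in the annotation, so only its start region was read. The 36 genes held 63 of the 31099 probe sets on the array. All 36 brightest probe sets passed the filter on low signal, as did 59 of the 63. They divided into 6 measured genes of the mevalonate and isoprenoid steps, 11 of the squalene and sterol steps, 6 of sterol sensing and transfer, 9 of fatty acid synthesis, elongation and desaturation, and 4 of efflux, lipoprotein and turnover.

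The study measured mRNA in the hippocampal formation and the neocortex of rats after the loss and the recovery of paradoxical sleep (rapid eye movement sleep), with Affymetrix rat arrays. All rats were male Sprague-Dawley animals of 260 to 300 g that carried implanted electrodes for recording brain activity and muscle tone. The recovery group was kept on small platforms over water, where the loss of muscle tone in paradoxical sleep wakes the animal, for 72 h and was then allowed 6 h of sleep per the sample labels; the protocol text can also be read as 6 h after 78 h. The deprived group was kept on the platforms for 78 h, and the control group stayed in the home cage. All rats were killed at 16 h clock time, and the right neocortex and the right hippocampal formation were taken from each. Each group had 12 rats in 2 sets of 6, and the RNA of each set was pooled, so a group is 2 pools per structure and both structures of a pool come from the same 6 rats. Set 1 was hybridised on 2 arrays per pool and set 2 on 1, which gave 18 arrays for 12 pools. The platform method adds immobility, wetness and social change to the loss of sleep, and no platform control group is used here.

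Cholesterol is built from acetyl-CoA through mevalonate, isoprenoid units and squalene, and the first sterol is then trimmed to cholesterol by a chain of endoplasmic reticulum enzymes. The brain makes nearly all of its own cholesterol, since lipoproteins of the blood do not cross the blood-brain barrier, and oligodendrocytes use it for myelin while astrocytes pass it to neurons on apolipoprotein E. SREBP transcription factors, held back by the INSIG proteins when sterols are plentiful, switch on the synthesis genes of both pathways, and neurons dispose of surplus cholesterol through 24-hydroxylation by CYP46A1.

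Median signals of the 18 arrays were 32.1 to 37.1. The structure labels fitted the marker genes: 5 measured markers of hippocampal neurons summed to 909 to 1222 in the 6 hippocampal pools and to 303 to 409 in the 6 neocortical pools, and 5 markers of neocortical neurons summed to 367 to 485 in hippocampal pools and to 1133 to 1375 in neocortical pools. The hippocampal pools of set 1 and set 2 lay apart on the first principal component of all kept probe sets, at -46.6 to -37.9 for set 1 and -10.0 to -0.30 for set 2, against 20.7 to 26.3 for the neocortical pools of both sets. The deposited values of the 6 hippocampal arrays of set 1 also differed in number format from the other arrays. Values are therefore given for each set as well as for the mean of both. The ratio of the 3′ to the 5′ probe set of beta-actin, a sign of RNA integrity, was 2.33 to 2.52 in hippocampal and 2.35 to 3.17 in neocortical pools.

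No gene of the 36 passed the test between sleep states in either structure. In limma's moderated test, adjusted by the Benjamini-Hochberg method over all 18625 kept probe sets, the number of genes called was 0 in each of the 6 comparisons, against 0% of all probe sets in each. The lowest adjusted p of any of the 36 genes in any of the 6 was 0.999907, and most differences are given with their unadjusted p alone. At an unadjusted p under 0.05 there was 1 of the 36 genes, Insig2, in recovery against deprived hippocampus (background 1.62%) and 1, Tm7sf2, in recovery against control neocortex (background 1.12%). The count was 0 in recovery against control (background 1.51%) and deprived against control hippocampus (background 1.1%), and 0 in recovery against deprived (background 0.907%) and deprived against control neocortex (background 1.11%). These counts changed with the set of rats in the fit as a block. They were then 2 of 36 in recovery against deprived (background 7.16%), 7 in recovery against control (background 7.32%) and 6 in deprived against control hippocampus (background 5.94%). For the neocortex they were 0, 2 and 1 in the same order (background 4.56%, 5.79% and 5.74%). No gene passed the adjusted test with the block. In bulk tissue, fewer cells of a type and less RNA per cell cannot be told apart. The 2 pools of a group are separate sets of rats, so p-values measure the spread between pools of 6 rats. Nothing in the labels says that pools of the same set share a day or a litter across sleep states. Same-set pools nevertheless deviated together from their group means (correlation 0.539 to 0.682). The spread used by the p-values without the block thus includes differences between the sets.

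Most of the 36 genes lay below the control in the hippocampal formation, by small amounts. In recovery against control hippocampus 30 of 36 had a log2 difference below 0, where 48.1% of all probe sets did, and the median was -0.070 (set 1 -0.13, set 2 -0.055) against a median of 0.0060 over all probe sets. In deprived against control hippocampus 26 of 36 were below 0, where 48.8% of all probe sets were, with a median of -0.081 (set 1 -0.13, set 2 -0.048) against 0.0040. The 2 counts share the control pools. In the neocortex 20 of 36 were below 0 in recovery against control (background 49.8%, median -0.0041), and 23 of 36 in deprived against control (background 47.5%, median -0.037). Between recovery and deprived pools the counts below 0 were 18 of 36 in the hippocampal formation (background 50.2%) and 15 of 36 in the neocortex (background 51.9%), a count that became 26 without the deprived neocortical pool of set 1. The medians and the counts depended on single pools. Without the set 1 control pool the hippocampal counts below 0 were 20 of 36 in recovery and 21 of 36 in deprived pools. Dropping the set 2 control pool moved the hippocampal median to -0.12 in recovery and -0.13 in deprived pools. Dropping the set 1 control pool moved it to -0.019 in recovery and -0.033 in deprived pools. In the neocortex, dropping the set 2 recovery pool gave a recovery median of -0.10. Dropping a deprived neocortical pool gave a deprived median of -0.088 (set 2 dropped) or -0.0053 (set 1 dropped). These are descriptions of a list chosen with results of these data known, not tests.

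Agreement between the sets narrows the counts. In recovery against control hippocampus 18 of 36 genes were below 0 in both sets, where 23.6% of all probe sets were, and in deprived against control hippocampus 21 of 36, where 24.5% were. In the neocortex the counts were 13 of 36 (background 25.9%) in recovery and 18 of 36 (background 24.7%) in deprived pools. Pools that did not overlap, with both pools below both control pools, were found for 7 of 36 genes in recovery hippocampus (background 9.87%), 11 in deprived hippocampus (background 9.33%), 8 in recovery neocortex (background 12.1%) and 7 in deprived neocortex (background 11.4%). Both pools above both control pools were found, over the same 4 comparisons, for 1 gene, 0, 3 and 0 genes, where the background was 10%, 10%, 11.9% and 13.1%. Over the 36 genes the median absolute log2 difference was 0.16 between the 2 sets of a group and 0.10 between sleep states within a structure and set. Between technical arrays of 1 pool, which only set 1 had, it was 0.12. That value is between single arrays, while the other 2 use pool values, which average 2 arrays in set 1.

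**Figure D1:**
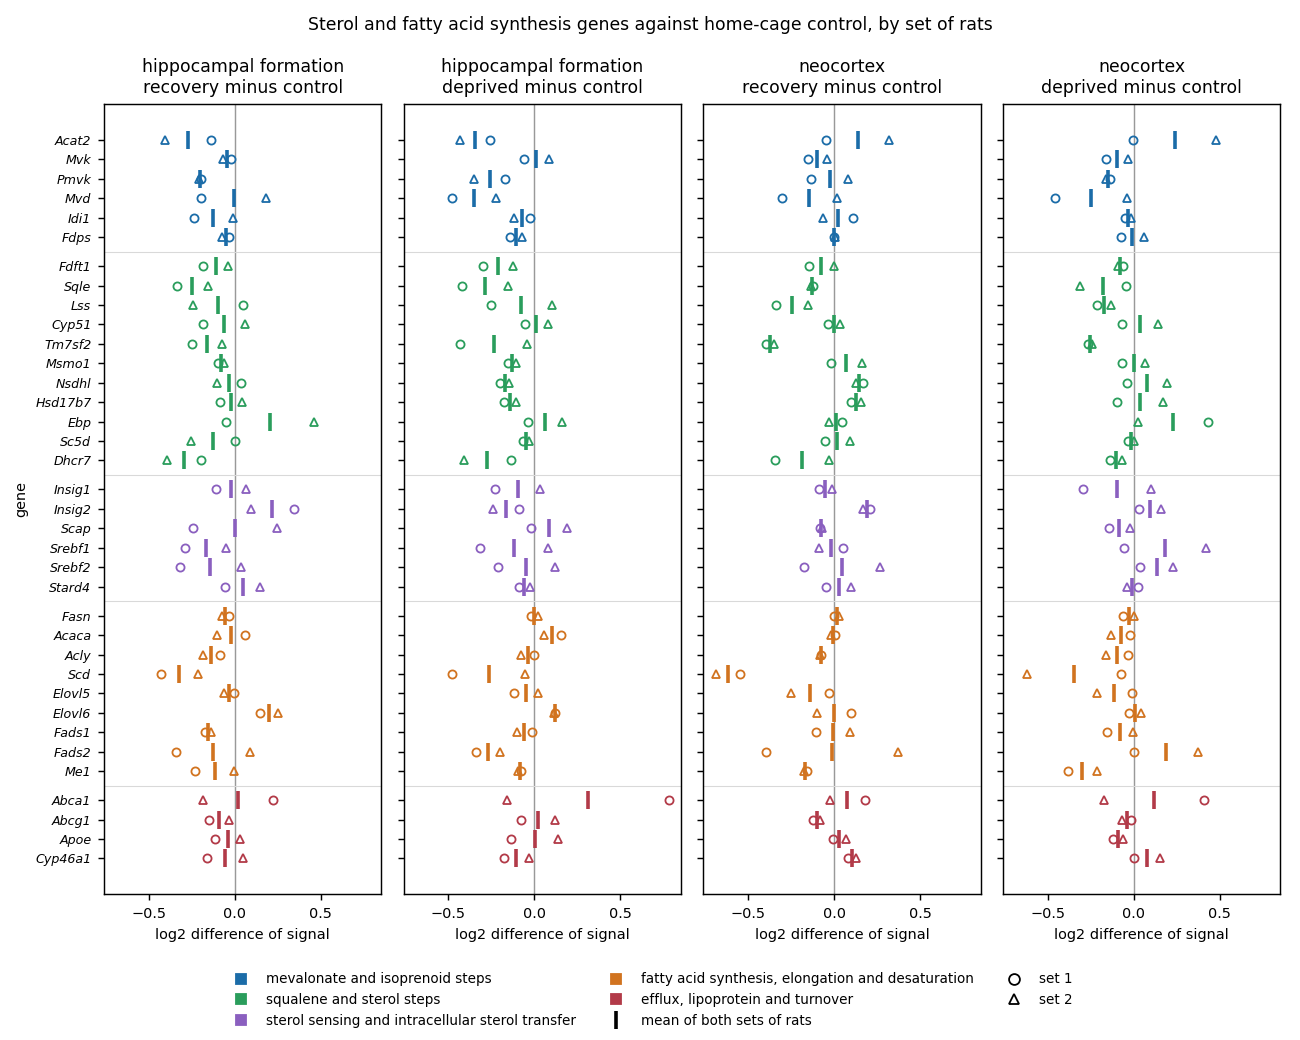
Log2 difference of signal from the home-cage control for each of the 36 measured genes (rows, grouped and coloured by step) in recovery and deprived hippocampal formation and recovery and deprived neocortex (panels, left to right). Ticks are the mean of both sets, circles set 1 (6 rats) and triangles set 2 (6 rats). In the hippocampal panels 30 and 26 of 36 ticks lie left of 0, against 20 and 23 in the neocortical panels. The circle and the triangle both lie left of 0 for 18 and 21 genes in the hippocampal panels and for 13 and 18 in the neocortical panels.

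By step, the median log2 difference of deprived from control hippocampus was -0.18 for the 6 mevalonate genes, -0.14 for the 11 sterol genes, -0.078 for the 6 sensing genes, -0.048 for the 9 fatty acid genes and 0.011 for the 4 efflux genes. In recovery hippocampus the medians were -0.089, -0.10, -0.011, -0.12 and -0.049 in that order of steps. In the neocortex the medians lay between -0.078 and 0.042 in deprived and between -0.012 and 0.054 in recovery pools. Within the sets the deprived hippocampal medians were -0.16 and -0.17 (set 1 and set 2) for mevalonate, -0.18 and -0.11 for sterol, -0.15 and 0.057 for sensing, -0.020 and -0.052 for fatty acid and -0.11 and 0.044 for efflux genes, so sensing and efflux had opposite signs in the sets. Without the control hippocampal pool of set 1 the deprived median was -0.24 for mevalonate, 0.059 for sensing, 0.014 for fatty acid and 0.084 for efflux genes. Without that of set 2 it was -0.049 for mevalonate, -0.25 for sterol, -0.22 for sensing and -0.14 for efflux genes. No test was made of a step. Markers of myelin-forming cells lay below control in the deprived hippocampal formation of set 1 as well. Of 9 measured oligodendrocyte markers 8 were below 0 in deprived against control hippocampus (background 48.8%), with a median of -0.30 in set 1 and 0.12 in set 2. Their summed signals were 13758 and 12800 in the deprived and 15882 and 11560 in the control hippocampal pools of set 1 and set 2, and all 9 passed the filter on low signal. Their part in the deprived result was not tested. In recovery against control hippocampus, where 30 of the 36 genes were below 0, 8 of the 9 markers were above 0 (background 51.9%), with medians of 0.065 in set 1 and 0.018 in set 2. Endothelial markers were lower than control without overlap in summed signal: the 6 markers, all past the filter, summed to 839 and 846 in recovery, 862 and 879 in deprived and 913 and 948 in control hippocampal pools. Of these 6 markers 3 were below 0 in recovery (background 48.1%, medians -0.091 in set 1 and -0.072 in set 2) and 5 in deprived against control hippocampus (background 48.8%, medians -0.089 and -0.13). Their part in the results was not tested.

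**Figure D2:**
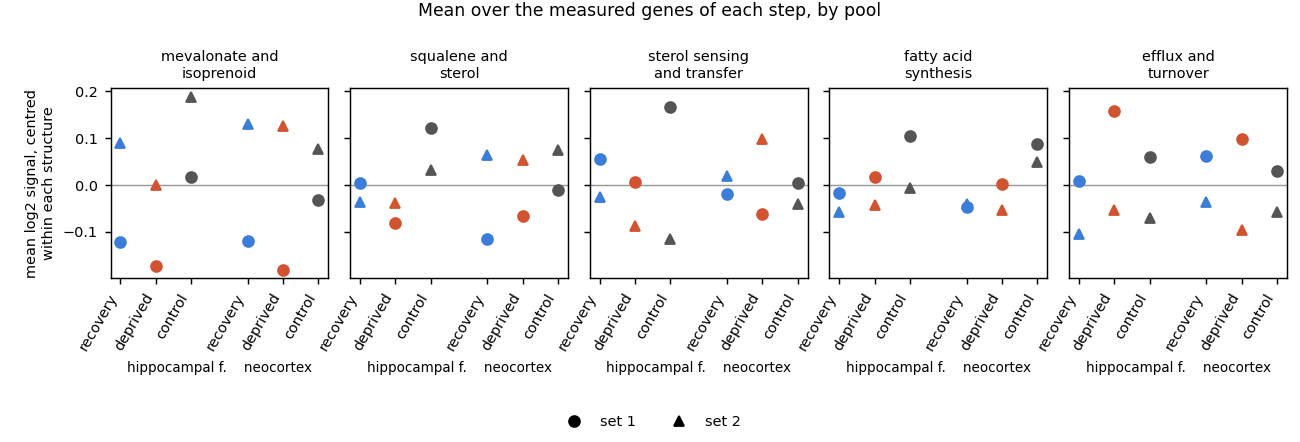
Mean log2 signal over the measured genes of each step (panels), centred within each structure, for recovery, deprived and control pools of the hippocampal formation and then the neocortex, with circles for set 1 and triangles for set 2. In the mevalonate panel the deprived hippocampal pools lay at -0.17 and 0.00043 and the control pools at 0.016 and 0.19 (set 1 and set 2), so each deprived pool was below the control pool of its own set while the sets themselves stood apart.

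The start regions of the genes were read from RefSeq on the rat build GRCr8, 250 bases before to 50 bases after each start; 29 of 37 genes had an entry. SREBP acts together with NF-Y and Sp1, so 4 motifs were searched on both strands and compared with all 27457 genes of the table. The NF-Y box CCAAT was found in 21 of 29 genes, or 72.4%, against 39.6% of all genes. The Sp1 motif GGGCGG was found in 24 of 29, or 82.8%, against 36%, and the E-box CACGTG in 5 of 29, or 17.2%, against 7.08%. The 9-letter sterol regulatory element TCACNCCAC was found in 0 of 29, against 1.25%, and 3 shorter forms were added after that result. CACNCCAC was found in 5 of 29, or 17.2%, against 6.25%, TCACNCCA in 2 of 29, or 6.9%, against 4.29%, and CACNCCA in 8 of 29, or 27.6%, against 18.4%. CCAAT was found in 5 of 6 mevalonate, 7 of 9 sterol, 4 of 5 sensing, 3 of 6 fatty acid and 2 of 3 efflux genes with an entry. The 6 mevalonate genes with an entry include Hmgcs1, which had no probe set, and not Pmvk. The shares over all genes were not matched for base content or for expression in the brain. Whether the higher shares go with control by SREBP was not tested. The motifs do not overlap in the windows shown, a match is not a bound site, and these start regions were not measured in the study.

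The windows of the 4 genes of smallest p over the sleep comparisons are shown with CCAAT and GGGCGG, or their reverse complements, in capitals. Tm7sf2 is at chr1:212789492-212789791 on the minus strand, Insig2 at chr13:35040049-35040348 on the minus strand, Scd at chr1:253231682-253231981 on the minus strand and Me1 at chr8:96540195-96540494 on the minus strand, each written 5′ to 3′ along the gene. Tm7sf2 holds 2 CCAAT and 1 GGGCGG, Insig2 holds 1 CCAAT, Me1 holds 5 GGGCGG, and Scd holds neither.
Tm7sf2: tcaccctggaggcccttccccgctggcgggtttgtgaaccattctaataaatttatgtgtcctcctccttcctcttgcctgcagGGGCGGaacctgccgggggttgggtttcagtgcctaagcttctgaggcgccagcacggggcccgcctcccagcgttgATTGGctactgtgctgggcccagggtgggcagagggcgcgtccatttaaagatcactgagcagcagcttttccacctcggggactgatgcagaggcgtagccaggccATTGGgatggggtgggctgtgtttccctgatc
Insig2: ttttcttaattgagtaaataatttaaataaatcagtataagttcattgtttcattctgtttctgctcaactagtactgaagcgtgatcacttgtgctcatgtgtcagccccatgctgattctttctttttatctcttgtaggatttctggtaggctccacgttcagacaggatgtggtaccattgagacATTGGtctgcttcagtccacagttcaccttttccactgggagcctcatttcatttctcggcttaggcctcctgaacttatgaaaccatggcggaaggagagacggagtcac
Scd: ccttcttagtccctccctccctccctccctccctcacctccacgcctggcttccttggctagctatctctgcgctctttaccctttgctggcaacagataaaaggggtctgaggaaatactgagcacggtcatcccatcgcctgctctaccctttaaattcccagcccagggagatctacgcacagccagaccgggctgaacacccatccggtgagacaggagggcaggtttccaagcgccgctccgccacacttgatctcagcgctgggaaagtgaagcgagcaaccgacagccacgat
Me1: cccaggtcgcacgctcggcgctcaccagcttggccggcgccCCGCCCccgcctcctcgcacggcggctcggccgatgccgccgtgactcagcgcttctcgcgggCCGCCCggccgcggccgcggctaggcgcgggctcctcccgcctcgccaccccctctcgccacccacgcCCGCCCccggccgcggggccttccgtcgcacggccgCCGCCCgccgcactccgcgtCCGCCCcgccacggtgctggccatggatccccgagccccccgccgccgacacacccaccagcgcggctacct

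Acetyl-CoA enters the sterol pathway through ACAT2, the cytosolic thiolase that joins 2 acetyl units. Acat2 had signals (scaled intensity, as for all levels) of 123 and 164 in the recovery, 113 and 162 in the deprived and 135 and 218 in the control hippocampal pools (set 1 and set 2 in this and all following pairs). In the neocortex it had 119 and 169 in recovery, 123 and 189 in deprived and 123 and 136 in control pools. Set 2 was the higher in all 6 groups, and of the set 2 pools the control was the highest in the hippocampal formation and the lowest in the neocortex. The log2 difference of deprived from control was -0.34 ± 0.30 (SE) in the hippocampal formation and 0.24 ± 0.30 in the neocortex.

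Mevalonate is then phosphorylated and decarboxylated. Mvk (mevalonate kinase) ranged over 58.4 to 66.1 in hippocampal and 59.9 to 73.8 in neocortical pools. Pmvk (phosphomevalonate kinase) had 169 and 187 in recovery, 172 and 169 in deprived and 193 and 216 in control hippocampal pools. Both recovery and both deprived hippocampal pools of Pmvk were below both control pools, with log2 differences of -0.20 and -0.26 and unadjusted p = 0.350 and 0.233 (limma). In the neocortex Pmvk ranged over 157 to 238.

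Mvd, the decarboxylase that yields isopentenyl pyrophosphate, was among the 5 genes of smallest p in 3 comparisons. It had 56.5 and 72.0 in recovery, 46.3 and 54.3 in deprived and 64.6 and 63.5 in control hippocampal pools. Both deprived pools were below all 4 others; deprived minus control was -0.35 ± 0.22 (set 1 -0.48, set 2 -0.23) and recovery minus deprived was 0.35 ± 0.22 (set 1 0.28, set 2 0.41), with unadjusted p = 0.135 and 0.141 (limma). The 2 differences share the deprived pools. In the neocortex Mvd had 46.2 and 61.3 in recovery, 41.4 and 59.0 in deprived and 57.0 and 60.7 in control pools. There set 1 and set 2 of the deprived group stood further apart than the groups, and deprived minus control was -0.25 ± 0.22, which became 0.0046 without the deprived pool of set 1.

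The isoprenoid units are isomerised by IDI1 and joined by FDPS to farnesyl pyrophosphate. Idi1 ranged over 238 to 297 in hippocampal and 273 to 305 in neocortical pools. Fdps ranged over 363 to 423 in hippocampal and 336 to 436 in neocortical pools. Over both genes and all 6 sleep comparisons the widest log2 difference was -0.12, of Idi1 in recovery against control hippocampus.

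FDFT1 and SQLE commit farnesyl pyrophosphate to sterols, FDFT1 by making squalene and SQLE by oxidising it, the second rate-limiting reaction of the pathway. Fdft1 had 242 and 234 in recovery, 223 and 220.4 in deprived and 274 and 240.0 in control hippocampal pools, and deprived minus control was -0.21 ± 0.13 (unadjusted p = 0.138, limma). Both deprived pools were below all 4 others, but the other kept probe set of Fdft1 gave 0.12. In the neocortex Fdft1 ranged over 228 to 284.

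Sqle had 213 and 209.8 in recovery, 201 and 209.9 in deprived and 269 and 234 in control hippocampal pools. All 4 recovery and deprived pools were below both control pools. The log2 difference from control was -0.25 ± 0.17 in recovery and -0.29 ± 0.17 in deprived pools, below 0 in both sets each time, with unadjusted p = 0.166 and 0.112 (limma). In the neocortex Sqle had 163 and 214 in recovery, 172 and 189 in deprived and 177 and 234 in control pools, where the control pools stood so far apart that deprived minus control (-0.18) became 0.023 without the control pool of set 2.

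Lanosterol, the first sterol, is formed by LSS and demethylated by CYP51. Lss had 82.4 and 103 in recovery, 89.9 and 104 in deprived and 104 and 114 in control neocortical pools. Both recovery and both deprived neocortical pools of Lss were below both control pools, the deprived pool of set 2 by a margin lost in rounding, with log2 differences of -0.25 and -0.17. In hippocampal pools Lss ranged over 80.3 to 129.9. Cyp51 ranged over 649.8 to 770.0 in hippocampal and 598 to 731 in neocortical pools.

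Tm7sf2, a sterol C14 reductase whose start region is shown with 2 CCAAT motifs, was the gene of smallest unadjusted p over the 6 sleep comparisons (probe set 1389725_at). It had 59.1 and 59.9 in recovery, 64.8 and 64.6 in deprived and 77.8 and 76.3 in control neocortical pools. The 3 neocortical groups did not overlap: recovery was lowest, deprived between and control highest. Recovery minus control was -0.37 ± 0.14 (set 1 -0.40, set 2 -0.35), a 1.29-fold lower signal, with unadjusted p = 0.0206 and adjusted p = 0.999996 (limma). Deprived minus control was -0.25 ± 0.14, with unadjusted p = 0.0917, and recovery minus deprived -0.12 ± 0.14. In the hippocampal formation it had 76.4 and 71.4 in recovery, 67.2 and 73.0 in deprived and 90.7 and 75.2 in control pools. There both deprived pools were below both control pools (-0.24 ± 0.14), while recovery and control pools overlapped (-0.16 ± 0.14). The neocortical beta-actin ratio was 3.17 and 2.83 with recovery, against 2.68 and 2.61 in control pools, and its part in the neocortical recovery result was not tested.

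The C4-methyl groups are removed by MSMO1, NSDHL and HSD17B7. Msmo1 ranged over 692 to 842 in hippocampal and 636 to 823 in neocortical pools. Nsdhl had 224 and 182 in recovery, 189.7 and 177 in deprived and 218 and 196 in control hippocampal pools, against 163 and 174, 141 and 182 and 145 and 159 in the same 3 groups of neocortical pools. Deprived minus control for Nsdhl was -0.17 in the hippocampal formation, without overlap, and 0.077 in the neocortex, with overlap. Hsd17b7 ranged over 83.2 to 106 in hippocampal and 85.9 to 104 in neocortical pools. Both recovery neocortical pools of Nsdhl and of Hsd17b7 were above both control pools, by 0.15 and 0.13, and neither passed the test.

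The last reactions are carried out by EBP, SC5D and DHCR7. Ebp, at a low signal of 33.1 to 55.1 in hippocampal and 33.3 to 46.8 in neocortical pools, differed more between sets than between groups in the hippocampal formation. Dhcr7, the reductase of the final step, had 156 and 126 in recovery, 162 and 125 in deprived and 178 and 166 in control hippocampal pools. All 4 recovery and deprived pools were below both control pools, with log2 differences of -0.30 ± 0.18 in recovery and -0.27 ± 0.18 in deprived pools, unadjusted p = 0.137 and 0.167 (limma). In the neocortex Dhcr7 ranged over 119 to 161.

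Sc5d, the sterol C5 desaturase, gave different readings from its 3 kept probe sets, which were singled out after their values were seen. The brightest showed little difference and the dimmer ones were higher in deprived pools. The brightest ranged over 293 to 385 in hippocampal and 318 to 397 in neocortical pools. Its deprived minus control was -0.048 in the hippocampal formation and -0.014 in the neocortex, small against the spread between its pools. A second probe set (1387926_at) had 153 and 183 in recovery, 219 and 236 in deprived and 130.2 and 136 in control neocortical pools, and 187 and 209 in recovery, 249.8 and 200.0 in deprived and 175 and 123 in control hippocampal pools. The remaining one (1390777_at) had 187 and 272 in recovery, 301 and 271 in deprived and 129 and 128 in control neocortical pools, and 156 and 359, 238 and 246 and 131 and 188 in the same 3 groups of hippocampal pools. Both dimmer probe sets were higher in deprived than in control pools without overlap in both structures. Deprived minus control was 0.78 ± 0.18 and 1.15 ± 0.34 in the neocortex and 0.61 ± 0.18 and 0.62 ± 0.34 in the hippocampal formation, with adjusted p of 0.999991 in the neocortex and 0.999907 in the hippocampal formation (limma). The dimmer probe sets are not in the counts of genes given above, which used the brightest probe set of each gene. Which transcripts each of the 3 probe sets reads was not tested.

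Sterol sensing was read from SREBP factors, their escort SCAP and the INSIG retention proteins. Srebf1 ranged over 128 to 166 in hippocampal and 104 to 171 in neocortical pools. Srebf2, the factor with most effect on sterol synthesis, had 411 and 366 in recovery, 442 and 388 in deprived and 512 and 357 in control hippocampal pools. Its 2 control pools enclosed all 4 others. In the neocortex Srebf2 ranged over 269 to 413. Scap ranged over 220.1 to 299 in hippocampal and 247 to 273 in neocortical pools. Insig1 ranged over 217 to 276 in hippocampal and 211 to 266 in neocortical pools. No difference of these 4 genes passed the test, and the smallest unadjusted p among them over the sleep comparisons was 0.425 (limma), for Srebf1 in recovery against deprived neocortex (-0.20 ± 0.24). The other kept probe set of Srebf1 gave 0.0038 there. Stard4, which carries sterol between membranes, ranged over 52.3 to 59.3 in hippocampal and 70.6 to 78.3 in neocortical pools, with no overlap between structures.

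Insig2, the INSIG form that does not depend on SREBP for its expression in liver, was the gene of smallest p in the hippocampal formation (probe set 1389377_at). It had 259 and 218 in recovery, 192 and 173 in deprived and 204 and 204 in control hippocampal pools. The 3 hippocampal groups did not overlap, with recovery highest and deprived lowest. Recovery minus deprived was 0.38 ± 0.16 (set 1 0.43, set 2 0.33), a 1.30-fold higher signal, with unadjusted p = 0.0375 and adjusted p = 0.999943 (limma). Recovery minus control was 0.22 ± 0.16 and deprived minus control -0.16 ± 0.16. In the neocortex it had 167 and 192 in recovery, 147 and 191 in deprived and 144 and 171 in control pools, which overlapped. The other kept probe set of Insig2 gave 0.11 ± 0.21 for recovery minus deprived hippocampus, of the same sign and smaller.

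**Figure D3:**
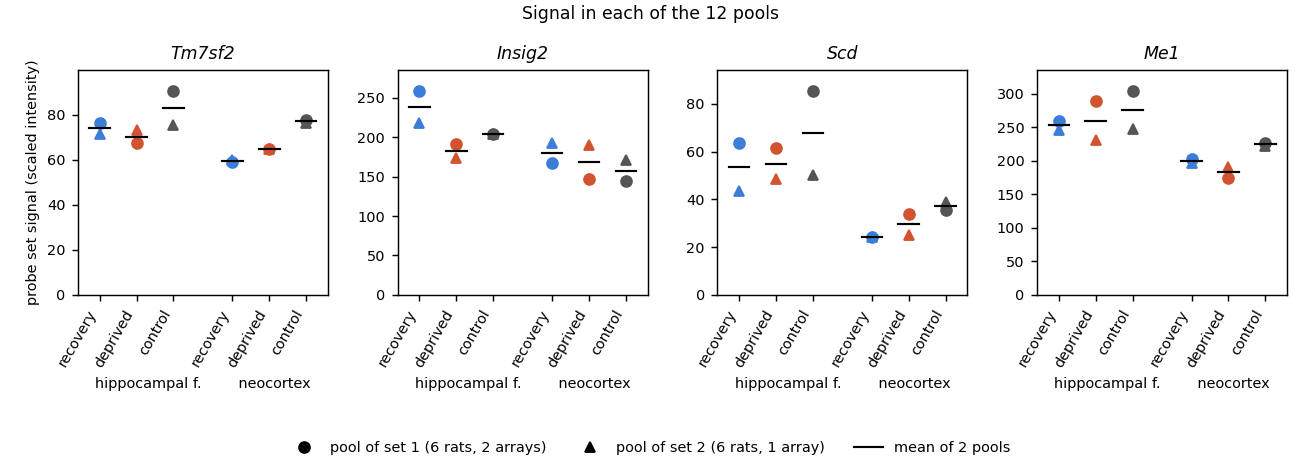
Signal (scaled intensity, axes from 0) of the 4 genes of smallest p over the sleep comparisons in each of the 12 pools, with recovery, deprived and control pools of the hippocampal formation left of those of the neocortex, circles for set 1, triangles for set 2 and bars for the mean of 2 pools. The neocortical control pools of Tm7sf2 (77.8 and 76.3), Scd (35.7 and 38.8) and Me1 (226 and 222) lie above all recovery and deprived neocortical pools of the same gene, and the hippocampal recovery pools of Insig2 (259 and 218) lie above the other hippocampal pools.

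Fatty acid synthesis begins with citrate cleavage by ACLY and carboxylation of acetyl-CoA by ACACA, and FASN builds the chain. Acly ranged over 552 to 724 in hippocampal and 622 to 734 in neocortical pools. Acaca ranged over 238 to 279 in hippocampal and 256 to 308 in neocortical pools. Fasn ranged over 490.4 to 529 in hippocampal and 484 to 521 in neocortical pools. Over the 3 genes and all 6 sleep comparisons the widest log2 difference was -0.14, of Acly in recovery against control hippocampus.

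Me1, the malic enzyme that supplies NADPH for the chain, had 203 and 197 in recovery, 174 and 191 in deprived and 226 and 222 in control neocortical pools (probe set 1370870_at). Both deprived and both recovery pools were below both control pools, and deprived pools were the lowest. Deprived minus control was -0.30 ± 0.14 (set 1 -0.38, set 2 -0.22), a 1.23-fold lower signal, with unadjusted p = 0.0571 and adjusted p = 0.999991 (limma). Recovery minus control was -0.17 ± 0.14 and recovery minus deprived 0.13 ± 0.14. The other kept probe set of Me1 gave 0.088 ± 0.13 for deprived minus control and -0.18 for recovery minus deprived neocortex, both of the opposite sign. In the hippocampal formation Me1 had 259.7 and 246 in recovery, 289 and 231 in deprived and 304 and 247 in control pools, where set 1 was the higher in each group and the groups overlapped.

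Scd, the desaturase that makes oleate, had 24.4 and 24.1 in recovery, 33.8 and 25.2 in deprived and 35.7 and 38.8 in control neocortical pools (probe set 1370355_at). The 3 neocortical groups did not overlap, and control was highest. Recovery minus control was -0.62 ± 0.28 (set 1 -0.55, set 2 -0.69), a 1.53-fold lower signal, with unadjusted p = 0.0554 and adjusted p = 0.999996 (limma). Deprived minus control was -0.35 ± 0.28, of which set 1 gave -0.076 and set 2 -0.62. These neocortical signals lie close to the filter on low signal, which was set at 19.7. In the hippocampal formation Scd had 63.6 and 43.4 in recovery, 61.4 and 48.6 in deprived and 85.6 and 50.4 in control pools, where all 3 groups overlapped.

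Longer and more unsaturated chains are made by the elongases ELOVL5 and ELOVL6 and the desaturases FADS1 and FADS2. Elovl5 had 556 and 538 in recovery, 563 and 550.2 in deprived and 567 and 639 in control neocortical pools, and ranged over 545 to 627 in hippocampal pools. Elovl6 ranged over 153 to 225 in hippocampal and 177 to 215 in neocortical pools. Elovl6 was above control in both sets in recovery (0.20) and deprived (0.12) hippocampus, with overlapping pools, where most of the other genes were below. Fads1 had 571 and 607 in recovery, 637 and 623 in deprived and 642 and 669.5 in control hippocampal pools. The 3 groups of Fads1 did not overlap, with recovery minus control at -0.16 ± 0.094 (unadjusted p = 0.128, limma), the smallest p of the 36 genes in that comparison. Fads2 differed more between sets than between sleep states in the hippocampal formation, with 80.6 and 67.2 in recovery, 80.8 and 55.1 in deprived and 102 and 63.3 in control hippocampal pools.

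Efflux was read from the lipid transporters ABCA1 and ABCG1 and their acceptor APOE. Abca1 had 184 and 191 in recovery, 272 and 194 in deprived and 158 and 217 in control hippocampal pools, and 197 and 169, 231 and 153 and 174 and 172 in the same 3 groups of neocortical pools. The deprived pool of set 1 was the highest in both structures, while that of set 2 was below its control in both. Deprived minus control hippocampus was 0.78 in set 1 and -0.16 in set 2. In that hippocampal pool the summed signal of Ttr and Folr1, the 2 of 5 choroid plexus markers past the filter, was 4515, the highest of the 12 pools, against 460 in the deprived pool of set 2 and 2767 and 1284 in the control pools; their part in the result was not tested. Recovery minus deprived hippocampus was -0.29 ± 0.23, where 2 of the 3 other probe sets of Abca1 gave 0.056 and 0.11.

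Abcg1 ranged over 257 to 287 in hippocampal and 249 to 280.2 in neocortical pools. Apoe ranged over 2729 to 4047 in hippocampal and 2374 to 3350.2 in neocortical pools, with set 1 above set 2 in every group. Cyp46a1, the neuronal 24-hydroxylase, ranged over 328 to 406 in hippocampal and 349 to 402 in neocortical pools. Over these 3 genes the widest log2 difference from control was -0.11, of Cyp46a1 in deprived hippocampus. Recovery minus deprived hippocampus was -0.11 ± 0.10 for Abcg1, where a dimmer probe set gave 0.49.

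Genes did pass the test between the structures. With the neocortical signal of each of the 6 pools of rats taken from its hippocampal signal, 5 of 36 genes passed the test (limma, adjusted p under 0.05), where 19.9% of all probe sets did. Of them 4 were higher in the hippocampal formation (background 9.4%) and 1 was lower (background 10.5%). The genes higher were Scd, Fads2 and Me1 of fatty acid synthesis and Apoe, and the gene lower was Stard4. In all 23 of 36 genes were above 0 (background 47.2%) and 13 below (background 52.8%), with a median of 0.054 against -0.015 over all probe sets. None of the 17 mevalonate and sterol genes passed the test in this fit (background 19.9%), which leaves differences between the sets in its error. With the set of rats as a block, 4 of the 11 sterol genes were called higher in the hippocampal formation (background 20.3%). Of the 6 mevalonate genes 0 were called with the block.

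Scd was 1.93-fold higher in the hippocampal formation, with a log2 difference of 0.95 ± 0.14 and adjusted p = 0.00487 (limma). Its difference was 1.38 and 0.85 in recovery, 0.86 and 0.95 in deprived and 1.26 and 0.38 in control pools. It was above 0 in 6 of 6 pools, and the lowest hippocampal signal (43.4) lay above the highest neocortical one (38.8). Me1 was 1.30-fold higher, by 0.38 ± 0.079 (adjusted p = 0.0171, limma), above 0 in 6 of 6 pools, with hippocampal signals of 231, 253 and 304 (lowest, median and highest) and neocortical signals of 174, 199.6 and 226. The other kept probe set of Me1 gave 0.20, of the same sign.

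Fads2, the first desaturase of polyunsaturated chains, was 1.48-fold higher in the hippocampal formation, by 0.57 ± 0.14 (adjusted p = 0.0300, limma). Its difference was 1.02 and 0.26 in recovery, 0.63 and -0.021 in deprived and 0.97 and 0.55 in control pools. It was above 0 in 5 of 6 pools and larger in set 1 than in set 2 in every group. Apoe was 1.16-fold higher, by 0.21 ± 0.042 (adjusted p = 0.0142, limma), above 0 in 6 of 6 pools, although signals of the structures overlapped at 2729, 3342 and 4047 (lowest, median and highest) in hippocampal and 2374, 2840.1 and 3350.2 in neocortical pools.

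Stard4 was 1.35-fold lower in the hippocampal formation, with a log2 difference of -0.43 ± 0.075 (adjusted p = 0.00833, limma). Its signals were 52.3, 53.6 and 59.3 (lowest, median and highest) in hippocampal and 70.6, 73.0 and 78.3 in neocortical pools. The pools did not overlap and its difference was below 0 in 6 of 6, between -0.51 and -0.39. Its other kept probe sets gave -0.36 and -0.39. Of the 36 genes 2 (Scd and Me1) had all 6 hippocampal above all 6 neocortical pools (background 6.46%) and 1 (Stard4) all below (background 7%). A difference of 1 sign in 6 of 6 pools was not limited to called genes. Dhcr7 (0.046 to 0.41) and Fads1 (0.016 to 0.32) were also above 0 in 6 of 6 pools and were not called.

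The number of calls between structures depended on single pools of rats, over all probe sets as well as for these genes. Leaving out 1 pool of set 1 gave 2 genes (recovery left out, background 9.61%), 1 gene (deprived left out, background 8.72%) or 2 genes (control left out, background 11.7%). Leaving out 1 pool of set 2 gave 4 genes (recovery left out, background 15%), 4 genes (deprived left out, background 12.6%) or 7 genes (control left out, background 24.2%). The share of all probe sets called thus moved in the same direction as the count of these genes. Scd was called in all 6 of these fits, Stard4 in 5 (not without the deprived pool of set 1), Fads2 in 3, and Me1 and Apoe in 2 each. In set 1 alone the difference of Fads2 was 0.87 and in set 2 alone 0.26, where neither Fads2 nor Apoe was called. Without the filter on low signal Fads2 and Apoe had adjusted p = 0.0522 and 0.0648 (limma), and after quantile normalization Apoe had 0.0885. Oligodendrocyte and astrocyte markers lay in the same direction as the 4 higher genes. All 9 measured oligodendrocyte markers were above 0 (background 47.2%), of which 2 were called (background 9.4%). Their summed signals were 11560 to 16525 in hippocampal and 10926 to 12914 in neocortical pools. Of 8 astrocyte markers 7 were above 0, of which 2 were called, with the same backgrounds. Their sums were 13900.4 to 14957 in hippocampal and 11968 to 14048 in neocortical pools. Microglial and endothelial markers lay the other way. All 7 of 7 microglial markers were below 0 (background 52.8%), of which 0 were called (background 10.5%). Their sums were 906 to 1098 in hippocampal and 854 to 1348 in neocortical pools. Of 6 endothelial markers 5 were below 0, of which 3 were called, with the same backgrounds. Their sums were 839 to 948 in hippocampal and 979.9 to 1117 in neocortical pools. Sums of neuronal markers overlapped, at 10187 to 11890 in hippocampal and 9887 to 11480 in neocortical pools. Those of the choroid plexus were 350 to 4515 in hippocampal and 129 to 2170 in neocortical pools. The part of these cell types in the result was not tested.

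**Figure D4:**
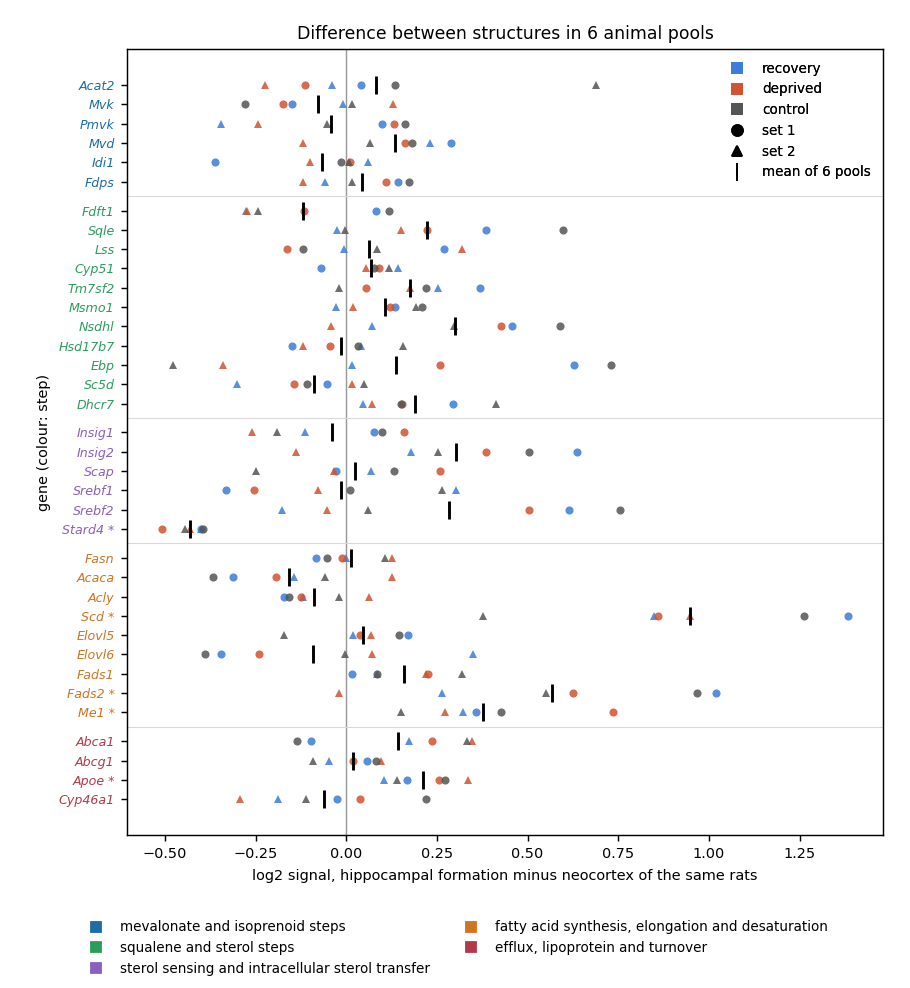
Log2 signal of the hippocampal formation minus the neocortex of the same rats for each of the 36 genes (rows, label coloured by step) in the 6 animal pools: blue recovery, red deprived, grey control, circles set 1, triangles set 2 and black ticks the mean. Asterisks mark the 5 called genes. All 6 points of Scd, Me1 and Apoe, and of the uncalled Dhcr7 and Fads1, lie right of 0. All 6 of Stard4 lie left of it, and for Nsdhl, Ebp and Sqle the set 1 point of each sleep state lies right of the set 2 point.

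Whether a sleep state acted differently in the 2 structures was tested on the same differences. The number of genes called was 0 in each of the 3 interactions, against 0% of all probe sets in each (limma), and at an unadjusted p under 0.05 there was 1 gene, Acat2, in deprived against control (background 1.14%), 0 in recovery against control (background 1.3%) and 0 in recovery against deprived (background 1.6%). The hippocampal minus neocortical difference of Acat2 was -0.11 and -0.22 in deprived and 0.14 and 0.69 in control pools. The interaction was -0.58 ± 0.21 (set 1 -0.25, set 2 -0.91), with unadjusted p = 0.0257 and adjusted p = 0.99992 (limma). The larger part came from set 2. The next smallest p in that interaction belonged to Fads2 (-0.46 ± 0.34), Srebf1 (-0.30), Nsdhl (-0.25) and Me1 (0.21), where the other probe sets of Srebf1 and Me1 gave 0.10 and -0.12.

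In recovery against control the smallest interaction p-values belonged to Acat2 (-0.41 ± 0.21), Msmo1 (-0.15), Fads1 (-0.15), Tm7sf2 (0.21) and Sc5d (-0.15, with 0.10 from 1 of its dimmer probe sets). In recovery against deprived they belonged to Apoe (-0.16 ± 0.10), Fads1 (-0.17), Abca1 (-0.25, with 0.055 to 0.20 from its 3 other probe sets), Insig2 (0.29) and Mvd (0.24). None of these passed the test, so no gene of the 36 was shown to differ between structures in its response.

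Different probe sets of 1 gene often disagreed about sleep states. Of the 18 genes with several kept probe sets, those with probe sets of both signs numbered 10 in recovery against deprived, 8 in recovery against control and 11 in deprived against control hippocampus, and 10, 6 and 11 in the same comparisons of the neocortex, against 5 between structures. The same count was not made over all genes with several probe sets, and small differences can easily take either sign. The counts are therefore not shown to be particular to these genes. For Mvk a dimmer probe set (1387119_at) had 42.2 and 52.1 in recovery, 35.7 and 32.1 in deprived and 48.9 and 43.7 in control hippocampal pools, and 38.4 and 38.6 in recovery, 57.3 and 49.7 in deprived and 60.7 and 53.7 in control neocortical pools. Its recovery minus control was 0.021 in the hippocampal formation and -0.57 in the neocortex, where the brightest probe set gave -0.046 and -0.10. This probe set was singled out after its values were seen, and none of its differences passed the test.

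Other textbook genes of the same pathways were counted in the same way. Of 41 such genes 30 were measured and kept: 15 of 22 of synthesis and regulation and 15 of 19 of uptake, storage, transport and turnover. The number called between sleep states was 0 in all 6 comparisons (limma), and 1 gene had an unadjusted p under 0.05: Cyp27a1, the sterol 27-hydroxylase, in recovery against deprived hippocampus (0.65 ± 0.25, unadjusted p = 0.0255, limma). In deprived against control hippocampus 8 of 15 synthesis and 6 of 15 uptake genes were below 0, with medians of -0.0064 and 0.015. Between structures 8 of 30 were called (background 19.9%). Higher in the hippocampal formation were Lpl, the lipoprotein lipase (1.49, adjusted p = 1.53e-04), Fabp7, the fatty acid carrier of radial glia and astrocytes (0.88, adjusted p = 1.38e-04), Cyp7b1 (0.57), Elovl2 (0.36) and Hacd3 (0.27). Lower were Ch25h, the cholesterol 25-hydroxylase (-0.78, adjusted p = 0.00515), Lpin1 (-0.29) and Stard3 (-0.23).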

How the data were processed

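The deposited values were 1 signal intensity per probe set and array, produced with MAS5 per the submitters' processing notes; how the authors scaled them is not given in the sources used here, and each array's mean without its highest and lowest 2% was 100.03. From these intensities, signals under 1 were set to 1, log2 was taken, the 2 technical arrays of a set 1 pool were averaged, and 57 control probe sets and the 40% of probe sets of lowest mean (under a signal of 19.7) were left out, leaving 18625. Gene names came from the platform annotation, in which 20832 probe sets had 1 symbol, 436 several and 9831 none.

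Groups came from the sample labels, with 2 pools in each of 6 groups. Sleep states were compared with limma 3.58.1 (R 4.3.3, mean-variance trend) over all 6 groups, and structures and interactions on the hippocampal minus neocortical difference of each of 6 pools of rats. P-values were adjusted by the Benjamini-Hochberg method over all kept probe sets, with a threshold of 0.05, and ± is the standard error of the fit. Same-set pools deviated together from their group means (correlation 0.539 to 0.682). The labels do not tie such pools across sleep states and each group has only 2 pools. The set entered as a block only as an alternative, and the main fit leaves differences between sets in its error. Effects were named for the 5 genes of smallest p in each sleep comparison and interaction and the called genes between structures; the 4 of smallest p over the sleep comparisons got every pool's value. Members, lists and tests were chosen with earlier results of these data known. The fit was tested on simulated data. The smallest changes added there between sleep states were larger than most sleep differences reported here, and they were not called. The simulated pools had independent noise, without the shared deviation of same-set pools seen in the data. Changes of that size added between structures were not called there either, although smaller differences between structures were called in the data. The simulation is therefore only a rough guide. With 2 pools a group, the absence of calls between sleep states says little about differences of the size reported here. Alternatives changed the filter, floor, normalization, technical arrays, pools, probe sets of a gene and the block. Promoters were scanned with Python 3.11.15 (numpy 2.4.6) and figures drawn with matplotlib 3.10.9. Arrays give no count of molecules, and the number of pools limits the precision.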

Additional observations from a re-analysis of the deposited data

How the results depend on the processing

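No gene of the 36 was called between sleep states or in an interaction under any of the alternatives run: 174 counts were made and 0 were above 0. With the set as a replicate block the count was again 0 in all 6 sleep comparisons, and the lowest adjusted p was 0.41, for Insig2 in recovery against deprived hippocampus (limma). At an unadjusted p under 0.05 with the replicate block the counts were 2, 7 and 6 in recovery against deprived, recovery against control and deprived against control hippocampus (7.16%, 7.32% and 5.94% of all probe sets) and 0, 2 and 1 in the neocortex (4.56%, 5.79% and 5.74%). The count of 5 genes of 36 (13.9%) called between structures, where 19.9% of all probe sets were, became 14 (38.9%) with the replicate block, where 43% were, and 3 (8.33%) without the filter on low signal, where 10.1% were. Each set alone was fitted after seeing the data. The count was 14 in set 1 alone, where 45.3% were, and 5 (13.9%) in set 2 alone, where 14.7% were. It was below the share of all probe sets in each of these fits. In set 2 alone Fads2 and Apoe were not called (adjusted p = 0.233 and 0.0729, limma). With the block 4 of the 11 sterol genes were called higher in the hippocampal formation (20.3% of all probe sets were) and 0 of the 6 mevalonate genes. With 1 pool of rats left out the count was 1 to 7. The number of genes below 0 stayed within 1.5 times the reported count in 143 of 144 fits, and was 26 without the deprived neocortical pool of set 1 for recovery against deprived neocortex. Many of these fits could not move a count, such as those that left out a pool outside the comparison. A fall from 30 to 20 also lay within 1.5 times, so the 143 are no measure of stability. With 1 pool left out the counts ran over 16 to 19 (recovery against deprived), 20 to 30 (recovery against control) and 21 to 27 (deprived against control) in the hippocampal formation, and over 15 to 26, 19 to 24 and 19 to 26 in the neocortex. Of 863 gene values in sleep comparisons and interactions 0 passed the threshold and 7 changed sign. Averaged over a gene's probe sets, Abcg1 in recovery against deprived hippocampus was 0.096, Me1 in recovery against deprived neocortex -0.025 and the Abca1 interaction for recovery against deprived 0.030. With 1 pool left out, Srebf1 in recovery against deprived neocortex ran over -0.56 to 0.15, Mvd in deprived against control neocortex over -0.51 to 0.0046, Sqle in the same comparison over -0.38 to 0.023 and the Me1 interaction for deprived against control over -0.018 to 0.45. The cause was not tested. With 2 pools a group, a count of 0 does not show that genes did not differ, and Scd lay near the filter in the neocortex, so a stricter filter left it out.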
